A study of Mus musculus with 36 samples.

Results

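The comparison set the outer toe of the mouse foot against the middle toe: 1397 open-chromatin regions separated digit V from digit III of the hindlimb, out of 45623 regions found in the 4 lists compared and 65543 regions in the whole series. Of them, 705 regions, or 1.55%, were called in both digit V lists and in neither digit III list (digit V regions), and 692, or 1.52%, were called in both digit III lists and in neither digit V list (digit III regions). The 4 lists were foot phalanges of digit V, metatarsal of digit V, foot phalanges of digit III and metatarsal of digit III, each cut to its first 36194 peaks so that all had the same length. Overlapping peaks of the 4 lists (1 bp or more in common) were joined to 1 region, which counted as called wherever a list had a peak on it. The series holds 36 ATAC-seq libraries of FVB/NJ embryos at E15.5, 3 for each of 12 combinations of limb, element and digit (I, III or V), and 12 of the libraries belong to the 4 groups compared. ATAC-seq sequences the fragments that a transposase cuts from accessible DNA. The labels call the cells chondrocytes of the autopod, which is the hand or foot skeleton. Each library pooled the left and right elements of 3 to 5 littermates (6 to 10 limbs), and the phalanges of digits III and V were pooled from proximal to distal. The labels do not give the sex of the embryos. Each group was represented by 1 peak list made from its pooled libraries. The spread between libraries is therefore unknown, and 2 lists against 2 cannot give an exact two-sided p below 0.333.

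Digits are laid down in an anterior to posterior order under Sonic hedgehog, which is made at the posterior margin of the limb bud, with the posterior HoxA and HoxD genes. At the stage sampled, the cartilage models of the bones lengthen through growth plates, where resting and proliferating chondrocytes pass to hypertrophy under Indian hedgehog, PTHrP, WNT, IGF and TGF-beta signals. Joint cells between the elements follow a separate programme that includes Gdf5, Osr1, Erg and Creb5. Open regions far from gene starts are the usual place of enhancers, the sequences that set where a gene is used.

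Most regions lay far from a start site, and the reference tables hold sequence only for start-site windows. RefSeq promoter windows (GRCm38.p6, the assembly that the mm10 build takes its coordinates from; 250 bases before to 50 after a start) underlay 40 of the 705 digit V regions and 29 of the 692 digit III regions. The 5 windows shown were chosen after their values were seen, because the start sites of an X-inactivation RNA, a bone-matrix protease and a Y-linked helicase stood on opposite sides of the comparison, and because 2 others carried a transcription factor's letters. Each is written 5′ to 3′ on the gene's own strand, with motif matches in capitals. Xist (chrX:103483184-103483483, minus strand), the RNA that silences the X chromosome in females, lay under a digit V region.
Xist: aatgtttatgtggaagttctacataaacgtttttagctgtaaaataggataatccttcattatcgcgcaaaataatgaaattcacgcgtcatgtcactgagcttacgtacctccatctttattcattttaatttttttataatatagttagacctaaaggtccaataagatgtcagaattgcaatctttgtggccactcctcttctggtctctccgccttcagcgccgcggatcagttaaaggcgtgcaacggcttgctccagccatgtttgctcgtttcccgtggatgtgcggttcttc
Ctsk (chr3:95498960-95499259, plus strand), cathepsin K, the collagen-degrading protease of osteoclasts, lay under a digit V region.
Ctsk: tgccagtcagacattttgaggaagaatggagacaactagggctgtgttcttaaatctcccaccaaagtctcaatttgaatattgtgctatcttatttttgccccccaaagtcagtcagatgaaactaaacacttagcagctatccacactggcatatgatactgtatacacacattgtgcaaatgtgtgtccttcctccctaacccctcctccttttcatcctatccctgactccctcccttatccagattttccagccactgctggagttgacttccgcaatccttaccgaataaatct
Igsf21 (chr4:140246762-140247061, minus strand), a cell-adhesion gene, lay under a digit V region and held a posterior Hox match.
Igsf21: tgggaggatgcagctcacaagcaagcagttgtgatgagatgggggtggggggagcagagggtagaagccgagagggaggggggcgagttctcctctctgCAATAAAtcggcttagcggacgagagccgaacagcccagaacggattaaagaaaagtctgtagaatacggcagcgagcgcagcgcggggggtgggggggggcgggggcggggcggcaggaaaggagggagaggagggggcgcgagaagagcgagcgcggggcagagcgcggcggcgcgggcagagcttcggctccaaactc
Ddx3y (chrY:1286564-1286863, minus strand), a Y-linked RNA helicase, lay under a digit III region and held a homeobox match.
Ddx3y: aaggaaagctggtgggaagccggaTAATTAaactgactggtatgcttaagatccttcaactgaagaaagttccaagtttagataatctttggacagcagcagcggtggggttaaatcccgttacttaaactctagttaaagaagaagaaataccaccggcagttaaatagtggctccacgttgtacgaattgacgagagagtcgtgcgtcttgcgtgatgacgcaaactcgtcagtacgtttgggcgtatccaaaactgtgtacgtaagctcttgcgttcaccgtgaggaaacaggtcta
Retreg1 (chr15:25940452-25940751, plus strand), a receptor for autophagy of the endoplasmic reticulum, lay under a digit III region and held an AP-1 match.
Retreg1: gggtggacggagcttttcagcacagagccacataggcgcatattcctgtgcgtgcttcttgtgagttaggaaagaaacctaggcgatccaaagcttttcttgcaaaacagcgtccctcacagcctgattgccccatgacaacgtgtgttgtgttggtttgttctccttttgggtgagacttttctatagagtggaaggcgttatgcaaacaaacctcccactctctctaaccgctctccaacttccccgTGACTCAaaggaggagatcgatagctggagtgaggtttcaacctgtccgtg

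Motifs were searched on both strands of these windows. The posterior Hox letters TTTATNG occurred in 8 of 45 windows under digit V regions, 1 of 31 under digit III regions and 10.91% of all 32851 windows. The TEAD letters GGAATG occurred in 11 of 45, 4 of 31 and 14.66%, and the AP-1 letters TGANTCA in 4 of 45, 5 of 31 and 7.808%. The homeobox letters TAATTA occurred in 2 of 45, 2 of 31 and 5.291%. The GLI letters TGGGTGGTC and the SOX letters AACAATGG occurred in 0 windows of either class (0.2527% and 1.05% of all). RUNX letters TGTGGTT occurred in 1 of 45, 2 of 31 and 5.269%, and the E-box letters CANNTG in 36 of 45, 26 of 31 and 72.31%. The windows are few and several belong to the same gene, so these counts are a description of letters and not of binding. The sequences of the distal regions were not analysed here.

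The digit III lists were longer as deposited, with 47375 peaks in foot phalanges and 44292 in metatarsal, against 39937 and 36700 for digit V. Cut to equal length, they ended at different significance: the authors' −log10 p at the last peak kept was 54.5 and 49.2 for digit III and 33.1 in both lists for digit V. The covered length was alike in the phalanges (97.9 Mb for digit V and 97.6 Mb for digit III) and smaller for digit V in the metatarsals (83.5 against 90.6 Mb). Cartilage markers carried peaks over the gene in all 4 lists: 17 or 18 of 19 genes of resting and proliferating chondrocytes (Ucma in none) and 11 or 12 of 15 of hypertrophic ones (Mmp13, Spp1 and Ibsp in none). Joint genes had peaks in 19 of 20 cases in each list (Prg4 in none), perichondrium genes in 13 or 14 of 15 and tendon genes in 10 or 11 of 12. The lists also held peaks over 9 or 10 of 12 muscle genes (Myog and Myh3 in none), 9 or 10 of 12 endothelial, 8 of 11 blood, 6 or 7 of 10 epidermal (Krt5, Krt14 and Krt15 in none) and 7 to 10 of 10 nerve genes. The share of all genes with a peak over them was not counted, so these counts do not set any marker list apart from other genes. Peaks over a gene do not measure its expression or the share of a cell type, and the part of other cell types in the comparison was not tested.

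Start sites of sex-linked genes differed between the digits. The Xist start lay under peak 25303 in foot phalanges V and 31033 in metatarsal V, and under peak 42260 in foot phalanges III and 40443 in metatarsal III, past the common length. Peaks at Ddx3y (rank 19990 and 19751) and Uty (35749 and 31171), both Y-linked, were present in the digit III lists and absent from both digit V lists as deposited. Eif2s3y was absent from foot phalanges V, at rank 28120 in metatarsal V, and at 25516 and 23169 in digit III. Kdm5d had no peak in any of the 4. The sex make-up of the pools and the digit cannot be told apart at these loci, and on autosomes alone the counts were 680 and 670.

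At equal list length, digit gave fewer regions than element did. Among the 5847 regions called in exactly 2 of the 4 lists (12.8% of all regions), 2029 were shared by both foot phalanges lists (4.45%) and 1785 by both metatarsal lists (3.91%). The 705 and 692 digit regions came next, and both crossed pairings were smaller, with 254 regions for phalanges V with metatarsal III (0.557%) and 382 for metatarsal V with phalanges III (0.837%). The order depends on the threshold: digit III regions numbered 2759 with the lists as deposited and 3559 above a common −log10 p (chosen after seeing the data), settings for which the element pairs were not counted. In all 4 lists were 26410 regions, or 57.9%. Merged the same way, the forelimb gave 518 digit V and 641 digit III regions out of 45873.

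**Figure D1:**
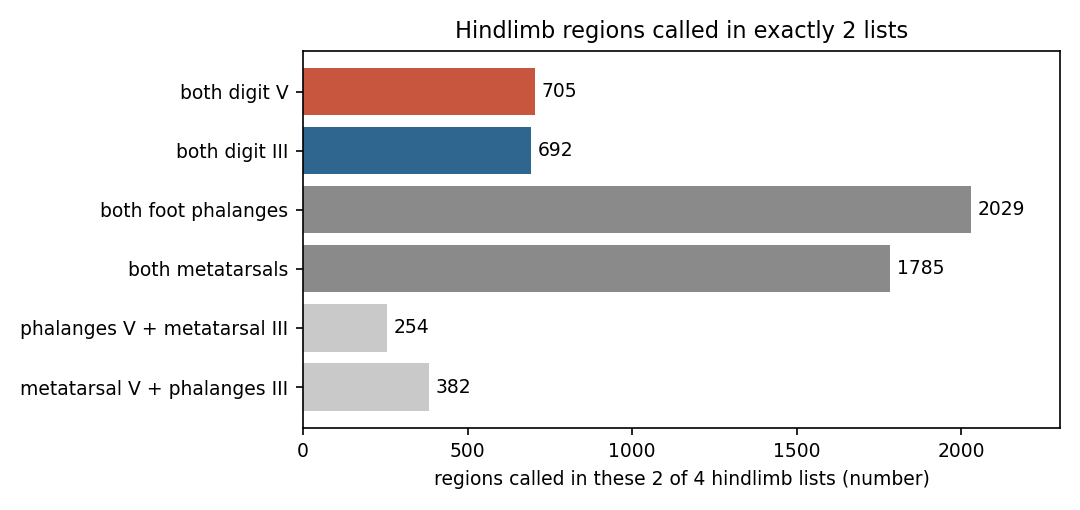
Number of hindlimb regions (horizontal axis) called in each pair of the 4 lists and in no other, red for both digit V lists, blue for both digit III lists, dark grey for pairs that share an element and light grey for pairs that share neither. The 705 and 692 digit regions are fewer than the 2029 and 1785 element regions and more than the 254 and 382 of the crossed pairs.

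Regions of both classes came mostly from the weak end of the lists. The median rank of the digit V regions was 29327 in foot phalanges and 31911 in metatarsal, and that of the digit III regions was 32341 and 30418, out of 36194. In at least 1 of their 2 lists, 661 digit V regions (93.76%) and 659 digit III regions (95.23%) stood in the last 25% of peaks. In both lists, 1 digit V region and 2 digit III regions stood in the first 50%. The classes differed in what lay past the common length: 584 digit V regions had a digit III peak there in at least 1 list and 121 had none, while 167 digit III regions had a digit V peak there and 525 had none. By construction the longer digit III lists could hold more such peaks. The last member kept was near Nt5c1a (rank 36174) for digit V and near Tacc3 (36192) for digit III, and the nearest peaks of the opposite digit left out were near Kalrn (36199) and Cylc2 (36196).

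Both classes were distal and narrow. Within 1 kb of a gene end lay 31 digit V regions (4.4%, Wilson 95% interval 3.1 to 6.2) and 20 digit III regions (2.9%, 1.9 to 4.4), against 3.7% of the regions called in exactly 2 lists and 23.1% of all regions. The Wilson intervals cover counting error only. Inside a protein-coding gene, away from its ends, lay 42.7% (39.1 to 46.4) of digit V and 50.7% (47.0 to 54.4) of digit III regions, against 46.9% of the regions in exactly 2 lists and 40.4% of all, and the tables do not tell exons from introns. The median distance to a gene end was 33.2 kb for digit V and 33.3 kb for digit III, with 34.7 kb for regions in exactly 2 lists and 14.3 kb for all. Median widths were 1815 and 1762.5 bp, against 2442 bp for all regions. The regions were spread over 653 and 629 genes, which is 4.23% and 4.08% of the 15434 genes that had any region. A region of the same class lay within 100 kb of 82 digit V (11.63%) and 72 digit III regions (10.4%). Position thus set these regions apart from regions called in all 4 lists (36.8% within 1 kb of a gene end). Position and width hardly set them apart from other regions called in exactly 2. A region spans all the peaks joined in it, so regions called in more lists tend to be wider by construction.

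Ror2, the receptor tyrosine kinase for WNT5A whose loss shortens digits, held the digit V region that stood highest. It was 1159 bp wide (chr13:53269617-53270775), inside the gene and 15.9 kb from its nearer end. It was peak 4938 in foot phalanges V and peak 1496 in metatarsal V, with the authors' fold enrichment at 39.0 and 49.7, and neither digit III list held a peak there even as deposited. It was also called in hand phalanges V and III, in both hindlimb digit I lists and in hand phalanges I, and in no metacarpal list. The presence of the peak therefore followed neither digit V nor the hindlimb across the series. The next by rank were near Zfp957 (peaks 14602 and 19308), a zinc-finger gene, inside Tmtc2 (19434 and 14102), a gene for an endoplasmic reticulum mannosyltransferase family member, and inside Kcnip1 (20297 and 17242), a potassium channel partner. These had no digit III peak as deposited either. The Kcnip1 region was called in all 8 other lists of the series.

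Digit V regions touched 2 genes of anterior-posterior patterning and digit III regions 1, which is 1.01% and 0.503% of that list's 199 regions, both under the 1.55% and 1.52% over all regions. A region 5.8 kb from Shh (chr5:28450137-28451979), the ligand that sets digit order, was peak 23840 in foot phalanges V and 34425 in metatarsal V. Digit III held peaks there past the common length, at 42138 and 38339, and of the 8 other lists it was called in metacarpal III, foot phalanges I and hand phalanges I. A region 70.0 kb from Irx5 (chr8:92286944-92288616), an Iroquois homeobox gene, was called in none of the 8 other lists, and its ranks of 31505 and 35121 were near the end of both digit V lists. On the digit III side of the same list stood a region inside Gli2 (chr1:119003381-119007127), a transcription factor of the hedgehog pathway, at peaks 30599 and 35149.

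Genes of resting and proliferating cartilage contributed 4 digit V regions (2.88%, against 1.55% over all regions) and 2 digit III regions (1.44%, against 1.52%) out of 139. The digit V regions lay at the end of Col2a1, the main cartilage collagen (0.5 kb, chr15:97973317-97978813), 5.2 kb from Matn1, a cartilage matrix protein, and inside Sox5 and Sox6, the partners of Sox9. All 4 had digit III peaks past the common length in both elements, with ranks from 38254 (Sox6, foot phalanges) to 46828 (Matn1, foot phalanges). The digit III regions lay 194.0 kb from Sox9, the master factor of cartilage, and 76.3 kb from Hapln1, a link protein of the cartilage matrix. Counted over all its called regions, the cartilage list was lower in digit V in both hindlimb elements. It had 90 in foot phalanges V and 81 in metatarsal V, against 96 and 92 in digit III. In the forelimb the digits overlapped, with 83 and 99 in hand phalanges V and metacarpal V, against 87 and 93. The share of 2.88% thus does not extend to the whole list, and no test was made. Perichondrium genes gave digit V regions at Col1a1, the bone collagen (2.2 kb), and Twist2, a mesenchymal factor (30.6 kb), and a digit III region 74.7 kb from Col1a2, the partner chain of Col1a1. These were 1.85% (digit V) and 0.926% (digit III) of the 108 regions of that list. Of the tendon genes, Fmod, a matrix proteoglycan, had a digit V region inside it and Tnc, tenascin C, had a digit III region 11.2 kb away. Each was 2.0% of the 50 regions of that list.

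Joint and articular cartilage genes held 10 digit III regions and 0 digit V regions among their 184 regions, which is 5.43% against 1.52% over all regions. Jun, an AP-1 subunit, had 3 of them (10.5, 133.4 and 141.1 kb away) and Osr1, an odd-skipped factor of joint cells, had 2 (75.3 and 291.1 kb). The others lay near or inside Enpp1 (27.1 kb), which makes pyrophosphate, Foxc1 (30.6 kb), a forkhead factor, Erg (33.6 kb), an ETS factor, Creb5 (46.6 kb), a regulator of articular cartilage, and Sulf1 (84.2 kb), a heparan sulfatase. Of the 10, 4 had a digit V peak past the common length (2 at Jun, and 1 each at Osr1 and Foxc1). The list was chosen with these data known, and no test of it was made. Counted over all its called regions, the joint list made up 34.5 and 36.9 per 10000 called regions in foot phalanges V and metatarsal V and 40.5 and 39.5 in foot phalanges III and metatarsal III. These are the lists that chose the 10 regions, so the difference between them is a description only. In the forelimb lists the digits overlapped, with 33.0 in hand phalanges V, 39.2 in metacarpal V, 33.7 in hand phalanges III and 38.9 in metacarpal III.

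Growth plate signalling genes had 5 digit III regions (2.39%, against 1.52% over all regions) and 1 digit V region, that of Ror2 (0.478%, against 1.55%), among 209. Igf1r, the IGF receptor, held 2 of the digit III regions inside the gene (73.2 and 78.8 kb from its nearer end). Tgfb2, a TGF-beta ligand (106.8 kb), Hhip, a hedgehog-binding antagonist (92.9 kb), and Sfrp2, a secreted WNT antagonist (54.4 kb), held 1 each. Of the hypertrophic genes, Foxa2 (12.6 kb) and Mef2c (295.6 kb), both transcription factors that drive hypertrophy, had 1 digit III region each, and none had a digit V region. Digit III regions made up 2.74% of the 73 regions of that list. Distal limb genes had a digit V region inside Prdm16, a zinc-finger factor, and digit III regions near Sp8 (186.3 kb), a factor of limb outgrowth, and Msx1 (35.5 kb), a distal homeobox gene. These were 0.769% (digit V) and 1.54% (digit III) of the 130 regions of that list. The posterior HoxA and HoxD genes (9 regions) and the limb identity genes (62 regions) had 0 members of either class. With shares of 1.55% and 1.52% over all regions, 0 among so few regions does not set these lists apart.

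In all, 206 of the 222 genes in 15 lists had a region, and they held 1324 regions. A digit V region was assigned to 13 of these genes (6.31%, against 4.23% of all genes) and a digit III region to 22 (10.7%, against 4.08%), with no gene in both. List genes have more regions than the average gene, so these shares are not a measure of enrichment. Among markers of other tissues, digit V regions lay near Pax7 (muscle, 25.2 kb, 4.35% of 23 regions) and Ptprc (blood, 24.3 kb, 2.08% of 48). Digit III regions lay near Erg (also endothelial, 1.61% of 62) and Epcam (epidermis, 32.2 kb, 3.85% of 26). Each share is 1 region, so none sets its list apart from the 1.55% and 1.52% over all regions.

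**Figure D2:**
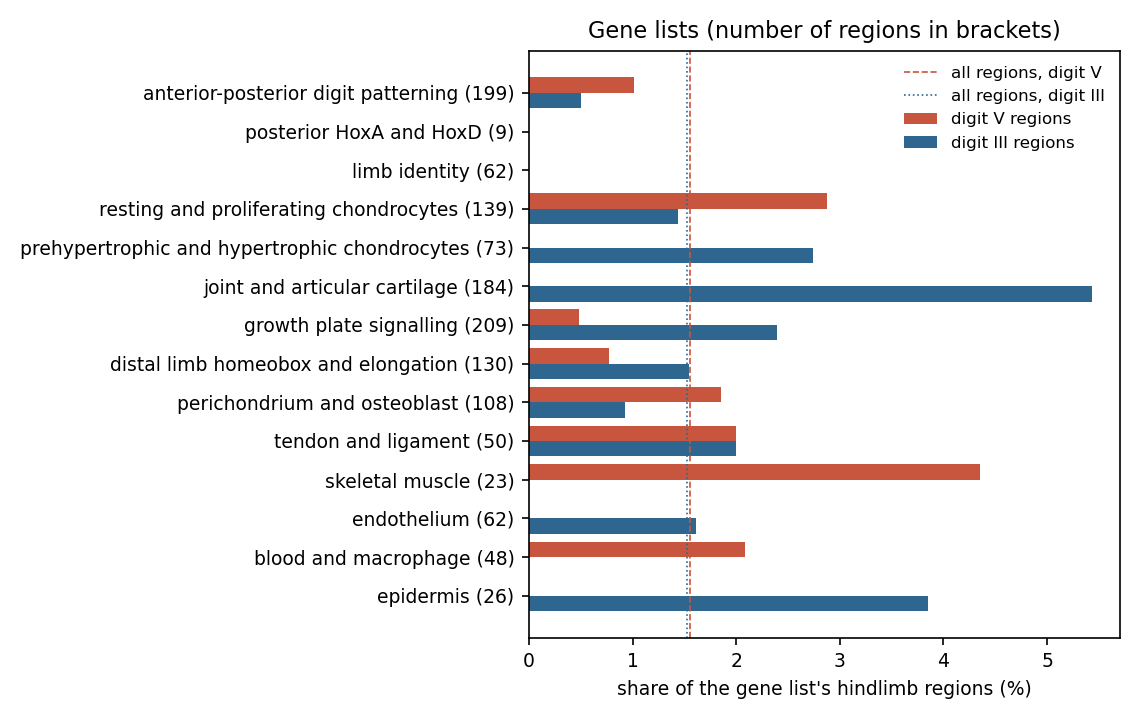
Share of the hindlimb regions of 14 of the 15 gene lists (horizontal axis, percent, with the number of regions in brackets) that were digit V regions (red bars) or digit III regions (blue bars), with dashed and dotted lines at 1.55% and 1.52% for all regions. The longest bar is that of the joint list in digit III, 5.43%, with 0 digit V regions, and lists with few regions reach several percent from a single region.

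**Figure D3:**
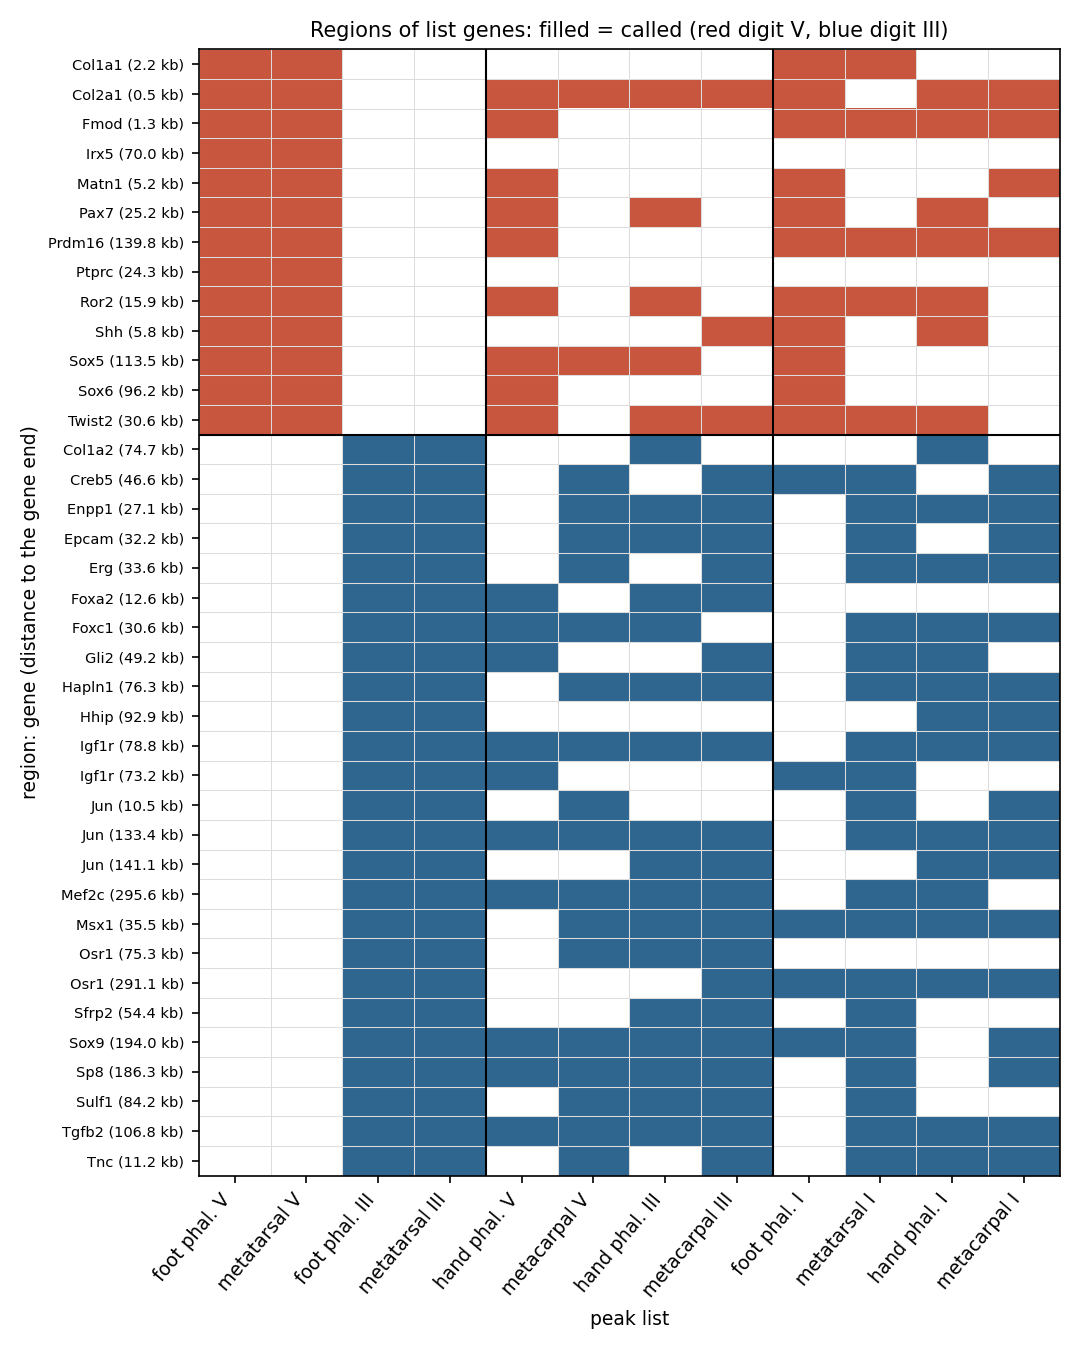
Each row is 1 of 38 member regions of list genes, with the distance to the gene end in kb, and each column is 1 of the 12 peak lists at equal length; filled cells are calls, red for the 13 digit V regions and blue for 25 digit III regions. The first 4 columns are fixed by the rule, and the other 8 show that the Irx5 and Ptprc regions were called in no other list and that most digit III regions were called in metacarpal III.

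Most landmark genes of digit identity had counts of called regions that overlapped between the digits or differed by 1 or 2. Here regions were merged over the 12 equal-length lists, and counts are given in the order foot phalanges V, metatarsal V, foot phalanges III and metatarsal III. Gli3, the hedgehog repressor, had 20, 23, 22 and 20 regions, and Hand2, a posterior factor upstream of Shh, had 11, 10, 13 and 10. Ptch1, the hedgehog receptor, had 3, 4, 5 and 6, so digit III was higher in both elements without overlap. Shh had 3, 3, 2 and 2. Grem1, a BMP antagonist, had 1 in each list, Hoxd12 had 1 in each and Hoxd10, Hoxd11 and Hoxd13 had 0 under an assignment that gives each region to 1 gene only. Hoxa13 had 2, 1, 1 and 1, Alx4, an anterior factor, had 4, 1, 1 and 1, and Gdf5, the joint ligand, had 2, 2, 2 and 1. Tbx2, a T-box gene, had 3 in each. The hindlimb genes Tbx4 (7, 5, 5 and 4) and Pitx1 (4, 3, 4 and 3) differed by element at least as much as by digit. Sall1 (11, 8, 10 and 8), Sall3 (5, 7, 7 and 5), Irx3 (5, 6, 5 and 4) and Sox9 (15, 5, 10 and 9) overlapped between digits, and Irx5 had 7, 7, 6 and 5.

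Outside the lists, the genes with the most digit V regions were Zfp386 and Gm20830 (4 each) and 9530057J20Rik (3). The Zfp386 regions lay 409.9 to 442.7 kb from the gene, in a stretch of chromosome 12 that holds immunoglobulin heavy-chain variable segments. The Gm20830 regions lie on the Y long arm. Both places hold closely similar gene copies, between which reads can be split, so these calls are uncertain. Each of 3110040M04Rik, Mvb12b, Aig1, Gpc5 (a glypican) and Lamb1 (a laminin chain) had 2. Gpc5 had 2 digit III regions as well. Most digit III regions were at Trib2, a pseudokinase, Adgrl2, an adhesion receptor, Adamts3, a procollagen-processing protease, and Icos, a T-cell receptor gene, with 3 each. D430019H16Rik, Lcorl, a gene tied to body size, Akap13, a scaffold of kinase A, and Cenpw, a centromere protein, had 2 each. Adgrl2 and Lcorl also had 1 digit V region each.

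A pair of the Adamts3 regions lay next to each other (chr5:89787349-89789202 and chr5:89793198-89794930), and neither had a digit V peak as deposited. Called regions at Adamts3 numbered 3 in foot phalanges V, 5 in metatarsal V, 7 in foot phalanges III and 8 in metatarsal III, the lists that the choice of the gene used. In the forelimb, which it did not use, the counts were 7, 7, 8 and 8 in the same order of digits and elements. The digit III regions highest by rank lay near Eno1b (peaks 7157 and 3913), an enolase gene, near D430019H16Rik (9468 and 6151), at Ddx3y, and inside Cpeb3 (20731 and 21093), a translation regulator, Ehd4 (24408 and 19535), a membrane-traffic gene, and Dst (25383 and 19258), a cytoskeletal linker. Those at Cpeb3, Ehd4 and Dst had no digit V peak as deposited and were called in 3 or 4 of the 4 forelimb lists of digits III and V. The regions near Eno1b and D430019H16Rik had no digit V peak as deposited either. Of the same 4 forelimb lists, that near Eno1b was called in none. That near D430019H16Rik was called in both digit V lists and 1 digit III list. Another region assigned to Eno1b was a digit V region. A region near Tcf4, an E-protein gene, came next (25927 and 18836).

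The forelimb lists were not used to choose the regions and give the same digits in another limb. As in the hindlimb, the digit V lists ended at a lower −log10 p. It was 28.4 in hand phalanges V and 25.3 in metacarpal V, against 49.4 and 66.8 in digit III. Digit and the strength of the lists therefore cannot be told apart in these shares. Digit V regions were called in 56.0% (52.3 to 59.6) of cases in hand phalanges V and 42.3% (38.7 to 45.9) in hand phalanges III. They were called in 37.2% (33.7 to 40.8) in metacarpal V and 19.9% (17.1 to 23.0) in metacarpal III. Within each element digit V was thus higher, by 13.8 and 17.3 percentage points, while the digits overlapped across elements. The means were 46.6% and 31.1% (digit V lists against digit III lists, exact permutation p = 0.667, two-sided, 2 lists against 2). Digit III regions were called in 43.1% (39.4 to 46.8) in hand phalanges V and 62.6% (58.9 to 66.1) in hand phalanges III, and in 65.0% (61.4 to 68.5) and 76.7% (73.4 to 79.7) in metacarpals V and III. Here digit III was higher within each element, by 19.5 and 11.7 points, and again the digits overlapped across elements (54.0% against 69.7%, exact permutation p = 0.667, two-sided). Of the regions called in exactly 2 lists, hand phalanges V held 40.9% and hand phalanges III 42.5%. Metacarpal V held 40.2% of them and metacarpal III 41.9%, and the mean difference was −1.6 points. Each of these 4 forelimb lists held 70.3% to 73.2% of all regions. With the lists as deposited the mean difference for digit V regions turned to −9.5 points, where the digit III forelimb lists hold 8095 and 17082 peaks past the common length and the digit V lists 595 and 2056.

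**Figure D4:**
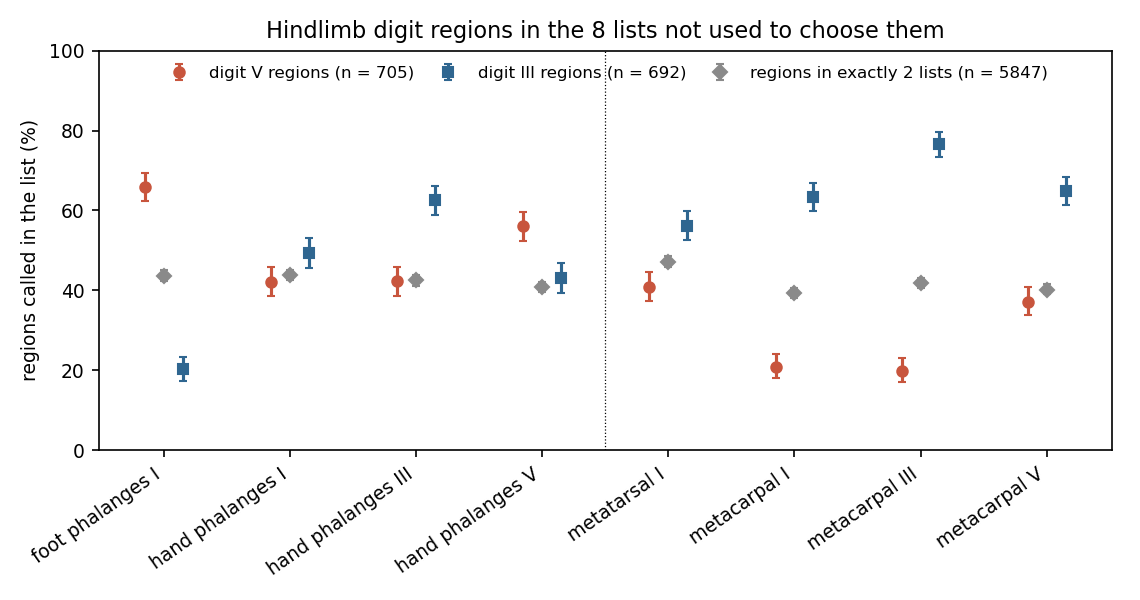
Percent of digit V regions (red circles, n = 705), digit III regions (blue squares, n = 692) and regions called in exactly 2 hindlimb lists (grey diamonds, n = 5847) that were called in each of the 8 lists not used to choose them; bars are Wilson 95% intervals, phalanges left and metapodials right of the dotted line. Digit V regions reach 66.0% in foot phalanges I and 19.9% in metacarpal III, and digit III regions 20.2% and 76.7% in the same lists.

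On average these shares differed between elements by more than between digits, but the means cover different lists, as digit I enters only the element pairs. For digit III regions the phalanx minus metapodial difference was −14.2 points in hand digit I and in hand digit III. That was smaller in size than the digit V minus digit III difference in hand phalanges, −19.5 points. Digit V regions were called more often in phalanges than in the metapodial of the same limb and digit in all 4 pairs: by 25.1 points in foot digit I, 21.3 in hand digit I, 22.4 in hand digit III and 18.9 in hand digit V, a mean of 21.9 ± 2.6 (SD, n = 4 pairs, exact sign-flip permutation p = 0.125, the smallest possible). Digit III regions went the opposite way in all 4 pairs, with −36.0, −14.2, −14.2 and −22.0 points, a mean of −21.6 ± 10.3 (SD, n = 4 pairs, exact permutation p = 0.125). Regions called in exactly 2 lists differed by 0.6 ± 3.3 points (exact permutation p = 0.625). In digit I of the foot, digit V regions were called in 66.0% (62.4 to 69.4) for phalanges and 40.9% (37.3 to 44.5) for metatarsal. Digit III regions were called there in 20.2% (17.4 to 23.4) and 56.2% (52.5 to 59.9). For regions in exactly 2 lists the shares there were 43.7% and 47.2%, and for all regions 71.9% and 75.6%. Foot phalanges I thus sided with digit V, and metatarsal I with digit III. The −log10 p at the last peak kept was 34.3 in foot phalanges I and 61.1 in metatarsal I, 28.4 and 25.3 in hand phalanges V and metacarpal V, 49.4 and 66.8 in hand phalanges III and metacarpal III, and 54.2 and 49.6 in hand phalanges I and metacarpal I. The element with more digit V regions called had the lower value in foot digit I and hand digit III and the higher value in hand digits V and I. Its part in the shares was not tested.

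Few regions kept the digit difference in both limbs. Of the digit V regions, 27 (3.83%) were called in both forelimb digit V lists and in neither forelimb digit III list, and 5 (0.7092%) showed the reverse. The first pattern held for 0.756% of all hindlimb regions and 1.64% of those in exactly 2 lists. Of the digit III regions, 38 (5.491%) were called in both forelimb digit III lists and in neither digit V list, and 12 (1.734%) showed the reverse, with 1.07% of all regions and 2.39% of those in exactly 2 lists. At equal list length, these 27 and 38 regions were called in all 4 lists of their digit and in 0 of 4 of the other. Among the 27 were regions inside Edem3, a gene of protein quality control, Sh3pxd2b, a podosome scaffold, Pknox2, a TALE homeobox gene, and Glyctk, a glycerate kinase. A further region lay 131.3 kb from Prox1, a homeobox gene. Among the 38 were regions 54.4 kb from Sfrp2, 141.1 kb from Jun and 9.4 kb from Kremen1, a WNT co-receptor antagonist, and regions inside Slit3, a guidance ligand, and Rarb, a retinoic acid receptor. Past the common length, most of the 27 had a hindlimb digit III peak in at least 1 element. Only those assigned to Ppp6r1, Gm9602 and Gm20914 had none. All the digit V regions described above had such a peak, from rank 36276 (Glyctk, metatarsal) to 41571 (Prox1, metatarsal). Most of the 38 had no digit V peak there, but those near Sfrp2 (38070) and Kremen1 (39747) did, both in foot phalanges. The genes named from the 27 and 38 were chosen after their values were seen. In no forelimb list of either digit were 241 digit V regions (34.18%) and 56 digit III regions (8.092%). The same held for 24.76% of regions in exactly 2 lists and 13.63% of all regions. All 4 forelimb lists called 81 digit V regions (11.49%) and 166 digit III regions (23.99%). For that pattern the shares were 10.18% of regions in exactly 2 lists and 57.11% of all regions.

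Counted by gene, the number of called regions was higher in digit V in all 4 pairs of element and limb for 104 of 15877 genes (0.655%) and higher in digit III for 158 (0.995%). The hindlimb pairs are the lists the rule used, and the genes below were chosen after their counts were seen. Of 208 list genes, 4 were higher in digit V and 7 in digit III. Tbx3, a T-box gene, had 8 called regions in foot phalanges V against 4 in foot phalanges III, 3 against 2 in the metatarsals, 7 against 6 in hand phalanges and 2 against 1 in the metacarpals. Its count differed more between elements than between digits. Matn1 had 5 against 2, 2 against 1, 4 against 2 and 2 against 1 in the same order, Gas1, a hedgehog co-receptor, had 18 against 16, 16 against 13, 16 against 14 and 12 against 11, and Ror2 15 against 11, 12 against 11, 12 against 11 and 10 against 8. On the digit III side, Sulf1 had 11 in digit V against 15 in digit III, 14 against 18, 11 against 14 and 17 against 18. Foxa2 had 8 against 11, 11 against 12, 12 against 13 and 12 against 17. Acan, the aggrecan gene, had 4 against 5, 5 against 7, 5 against 6 and 6 against 7, and Fgf18, a growth factor that limits chondrocyte proliferation, 5 against 6, 7 against 8, 7 against 8 and 7 against 9. Hhip and Epcam differed by 1 region in each pair. Most of these differences were of 1 or 2 regions, and no test of them was made.

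**Figure D5:**
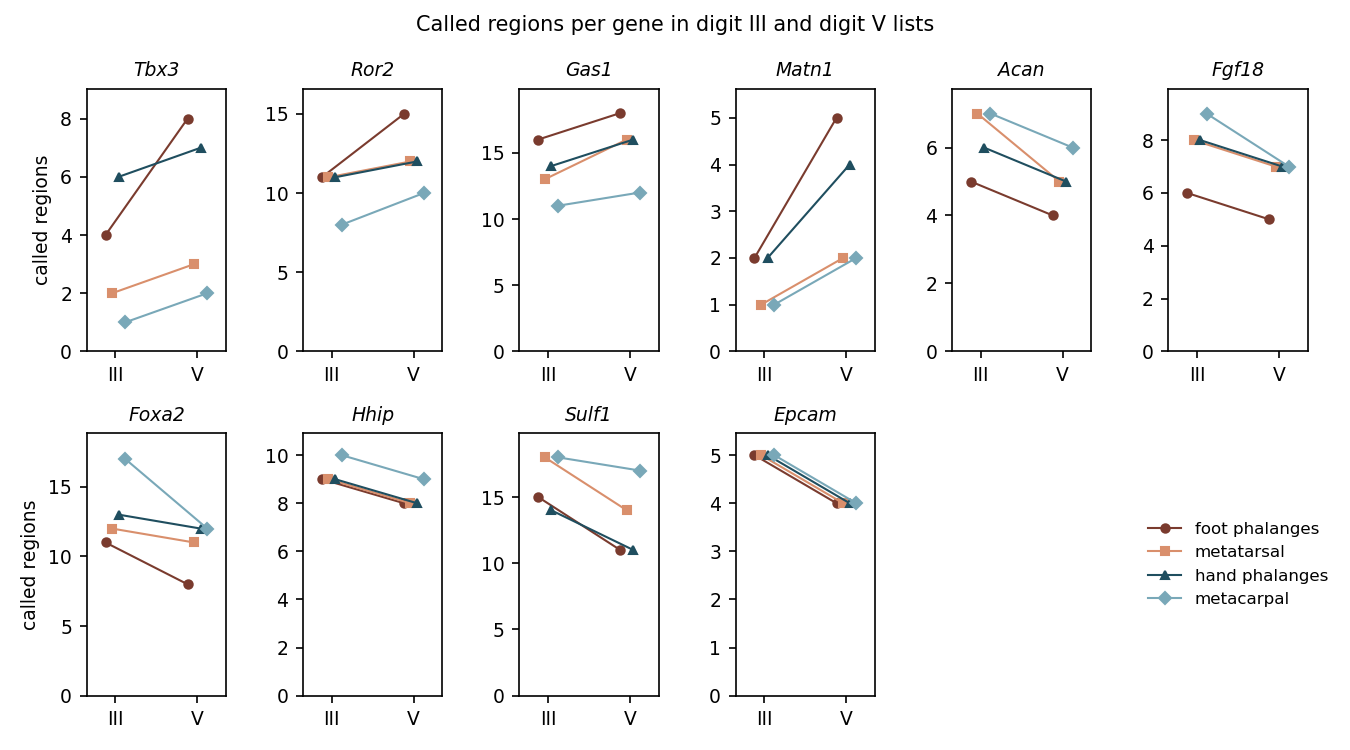
Called regions (vertical axis, number, from 0) in the digit III and the digit V list of each of 4 pairs: foot phalanges (circles), metatarsal (squares), hand phalanges (triangles) and metacarpal (diamonds), for 10 list genes whose 4 lines slope the same way; markers are shifted sideways so that equal counts can be seen. Tbx3, Ror2, Gas1 and Matn1 go up to digit V and the other 6 genes go down.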

How the data were processed

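ATAC-seq libraries of 12 groups of 3 were analysed through 1 peak list per group. Per the submitters' processing notes, Bowtie2 2.3.4.1, Picard 2.9.0 and MACS3 were used with the mm10 build. Trimming, filters, cut-site shift and caller settings are not given in the sources used here. The peak names say that libraries were pooled, and the list names state a selection by irreproducible discovery rate at 0.05. In the deposited lists each peak has the caller's score, its fold over background (a ratio) and its −log10 p-value. These fall together down each list and were used here only to order or leave out peaks. No counts were analysed, so depth is unknown (the labels state a target of 40 M reads), and a missing call can be a peak just under a threshold.

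Lists were cut to the length of the shortest, 36194 peaks, merged at 1 bp overlap, and given to the gene whose end was closest, up to 1 Mb off (21887 protein-coding genes, RefSeq table of GRCm38.p6, which has no strand or exons; start sites had been planned). Distances run from a region's centre. Promoter windows covered 17492 of these genes. Motifs were planned for windows round summits and were searched in promoter windows instead. Calls were compared over lists with exact permutation tests in Python 3.11.15 with numpy 2.4.6, pandas 2.3.3 and scipy 1.17.1, and figures were drawn with matplotlib 3.10.9. The merging and counting steps were tested on simulated lists.

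Genes were named by a rule: up to 4 genes of each of the 15 lists and class, 8 further genes per class by number of regions, the 8 highest-ranked regions per class, and 21 landmarks. Some named genes are not reported here. Others are said to be chosen after their values were seen. The members and lists were chosen with earlier results of these data known. Alternatives were other list lengths, peak order, absence rules, overlap, summit windows, merging, autosomes, single elements and gene assignment. A common −log10 p was added after seeing the data.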

Additional observations from a re-analysis of the deposited data

Results flagged for a closer look

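Called regions of the anterior-posterior patterning list went opposite ways in the limbs. In the hindlimb they were more frequent in digit V, at 42.7 and 41.0 per 10000 called regions in foot phalanges and metatarsal, against 41.7 and 38.0 in digit III, a mean difference of 2.00. In the forelimb they were less frequent in digit V, at 38.3 and 35.1 against 40.4 and 38.3, a mean difference of −2.65. Tnc, tenascin C, had fewer called regions in digit V of the hindlimb (8 and 9 against 9 and 14 in digit III, a mean difference of −3.00) and more in digit V of the forelimb (12 and 15 against 11 and 13, a mean difference of 1.50). Both were picked out because every pair of lists of one limb went one way and every pair of the other limb the opposite way, and neither difference between limbs was tested.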

How the results depend on the processing

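The counts depended on the threshold. Digit V and digit III regions numbered 705 and 692 at equal length, 199 and 2759 with the lists as deposited, 219 and 165 with the first 50% of each list, 34 and 3559 above a common −log10 p of 54.5 (chosen after seeing the data), 4693 and 4782 in phalanges alone, and 4023 and 4335 in metatarsals alone. Of the regions at equal length, the first 50% kept 1 and 2, the common −log10 p kept 27 and 534, and equal covered length kept 309 and 101. Requiring absence from the deposited lists of the other digit left 121 digit V regions. Equal covered length gave 202 digit III regions, and 50% coverage of a region gave 1235. The other alternatives gave 672 to 926 digit V regions (7 alternatives) and 525 to 884 digit III regions (6 alternatives). Ordering by fold enrichment, counted among them, gave the same 705 and 692 by construction, because fold falls down every list. The forelimb difference of digit V minus digit III for digit V regions, 13.8 and 17.3 points in phalanges and metacarpal, turned to a mean of −9.5 with the lists as deposited and was 18.7 with the first 50%, 12.4 with absence from the deposited lists and 12.6 with 50% coverage. For digit III regions, −15.6 points became −34.4, −8.5 with the first 50% and −21.2 with 50% coverage. List genes with a member numbered 35, or 16 by gene body with 10 kb flanks and 58 with the lists as deposited. The cause of these shifts was not tested, except that longer lists hold more calls by construction. No paired analysis was possible because the libraries of a group were pooled to 1 list, so that no replicate number could serve as a block (lists were paired by limb, digit or element in the report), and for the same reason no library could be left out.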

Other observations

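Digit V regions lay nearest a predicted gene (a Gm or LOC name) in 53 cases (7.5%, Wilson 95% interval 5.8 to 9.7), digit III regions in 16 (2.3%, 1.4 to 3.7), regions called in exactly 2 lists in 3.1% and all regions in 2.6%. Of the 45 digit V regions on chromosome 14, 15 were of this kind, and of the 18 digit III regions there, 1 was. All 8 digit V regions on the Y chromosome were of this kind and none of the 3 digit III regions there. Chromosome 11 held 47 digit V and 25 digit III regions, out of 2657 regions of any kind there. Chromosome 6 held 26 and 44, out of 2594. Of all 45623 regions, 1892 lay on chromosome 14 and 33 on the Y chromosome. These counts were picked out after they were seen and were not tested.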
